A study of Arabidopsis thaliana with 3 samples.

Results

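The genes described here are the plastid-encoded genes of Arabidopsis thaliana that serve gene expression and other functions outside photosynthesis: 4 subunits of the plastid RNA polymerase (rpo), 10 proteins of the small ribosomal subunit (rps), 9 proteins of the large ribosomal subunit (rpl) and 7 genes with other roles (accD, clpP, matK, ycf1, ycf2, cemA and ccsA). They were chosen by name and genome, not by their signals, though with earlier results of these data known. Mitochondrial copies of rps and rpl genes were left out. All 30 had a probe set, the group of short probes that reports 1 transcript, and they used 31 of the 22746 Arabidopsis probe sets on the array. The plastid genome as a whole had 76 genes with a probe set. Total RNA came from whole seedlings harvested at 7 days. Wild type is of the Columbia ecotype, 35S:WRKY6-9 (35S:WRKY6 below) overexpresses the transcription factor WRKY6 from the 35S promoter, a viral promoter active in most plant tissues, and wrky6-1 is a WRKY6 knockout. After 2 days of cold, all seedlings grew on MS agar at 22 °C under constant light (40 µmol per m² and second). The labels give the ecotype for wild type, name 1 overexpressing line and 1 knockout allele, and do not say how many seedlings were pooled. Each genotype had 1 array, so every ratio below compares single arrays, with no replicate check, no standard error and no p-value. Both lines are set against the same wild-type array, so a shift seen in both is not 2 separate observations.

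Plastids keep a small genome of bacterial descent and read it with different RNA polymerases. The plastid-encoded polymerase is a bacterial-type enzyme whose core is made from rpoA, rpoB, rpoC1 and rpoC2, and it reads mainly photosynthesis genes. A phage-type polymerase encoded in the nucleus reads the rpoB operon, accD and ycf2, and many other genes, among them clpP, can be read by both. Most plastid genes are transcribed together with their neighbours into long RNAs that are then cut and trimmed. Plastid ribosomes are also bacterial in type, with some proteins encoded in the plastid and others in the nucleus. Plastid messengers mostly lack the stable poly(A) tails from which this kind of array labelling is primed, and short A-rich tails mark plastid RNA for decay, so a plastid signal need not follow the amount of intact transcript. The part of this in the differences below was not tested.

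Signals are given below in the order wild type, 35S:WRKY6, wrky6-1 wherever 3 values stand without names. The WRKY6 signals were 322, 9245 and 12.1, in the direction of the labels. Median signals over Arabidopsis probe sets were 182, 169 and 173, after scaling by the authors. The signal of 3' over 5' actin control probe sets, a measure of RNA integrity, was between 1.84 and 1.97. Spiked-in hybridisation controls, added in fixed amounts, had a median signal ratio of 1.31 for 35S:WRKY6 over wild type (log2 0.39) and of 1.05 for wrky6-1 over wild type (log2 0.07). Their part in the ratios below was not tested. Of 9 listed green-tissue markers 1 had a named probe set, RCA, which encodes Rubisco activase, with signals of 19737, 25048 and 25155. Of 6 listed root markers 3 had one. PYK10, a root β-glucosidase, had 14213, 17509 and 18203, and the root hair expansin genes EXPA7 and EXPA18 had 128, 243 and 113, and 179, 305 and 195. RNA from leaves and roots was thus measured on all 3 arrays. In whole seedlings, fewer cells of a type and less RNA per cell cannot be told apart.

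Signals are on the deposited linear scale. Log2 ratios were taken after raising values under a signal of 45.5 to that floor, and a gene was called measured in a comparison when the higher of its 2 arrays reached 175. By that rule 28 of the 30 genes were measured in each comparison. The exceptions were rps14 and ycf2. The disagreement between probe sets of 1 gene gives the only error at hand: from 45 genes, a single probe set scattered with an SD of 0.25 on the log2 scale when 35S:WRKY6 was set against wild type. With wrky6-1 the SD was 0.23 (47 genes), and between the lines it was 0.27 (46 genes). Variation from plant to plant, or from one extraction to another, is not in it. Nor is rps12, the only gene described here with 2 probe sets. Its probe sets lay farther apart, with log2 ratios of 0.36 and 0.91 in 35S:WRKY6 and 0.31 and 0.84 in wrky6-1.

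**Figure D1:**
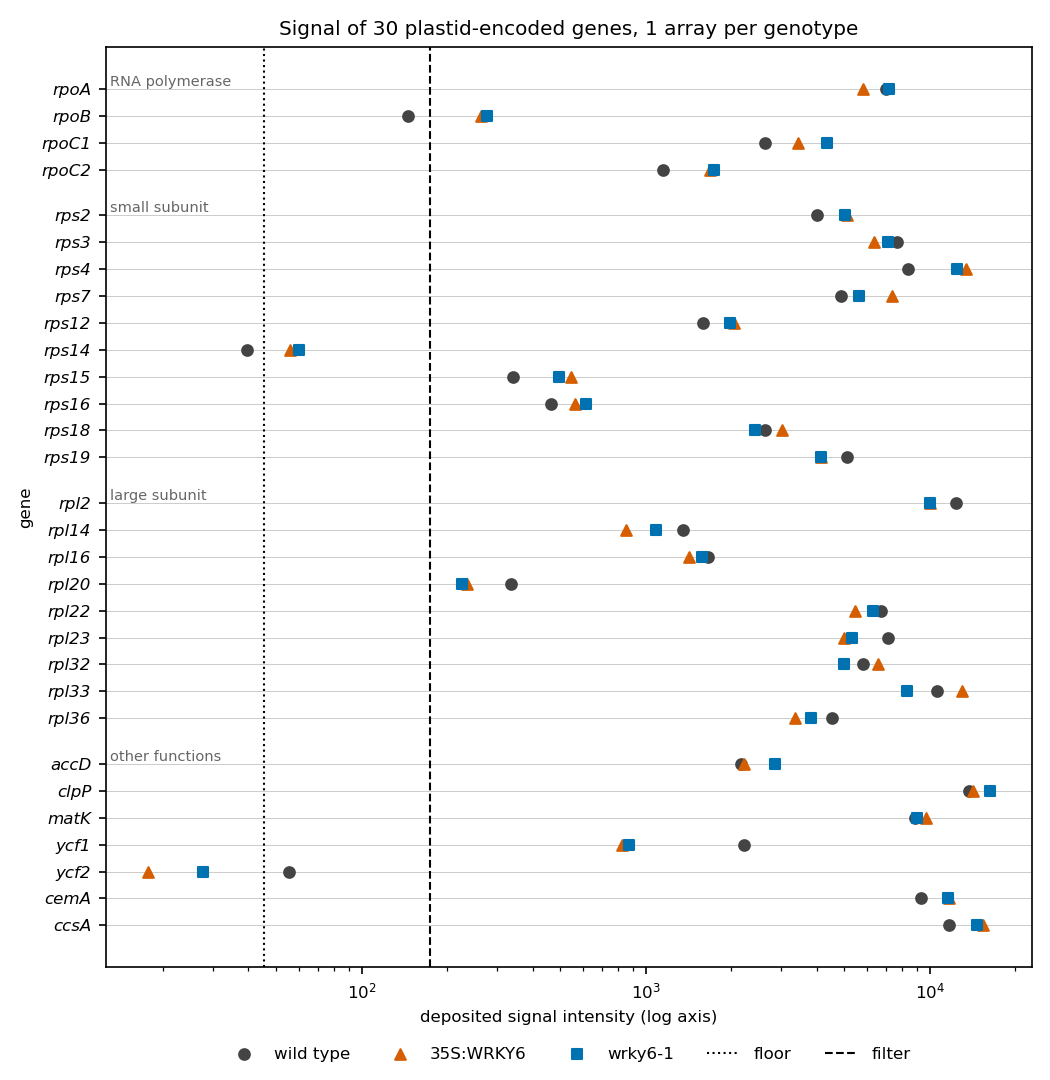
Deposited signal (log axis) of the 30 genes, one row per gene, on the wild-type array (circle), the 35S:WRKY6 array (triangle) and the wrky6-1 array (square), 1 array each. The dotted line is the floor of 45.5 and the dashed line the filter of 175. Only rps14 and ycf2 lie under the filter on all 3 arrays, and the 3 symbols of ycf1 are the widest apart among the measured genes.

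The polymerase genes of the rpoB operon had higher signals in both lines than in wild type, while rpoA did not share that shift. rpoB, for the β subunit, had signals of 145, 263 and 277, and the lines were thus 1.81-fold and 1.90-fold higher (log2 ratios 0.86 and 0.93). Its wild-type signal lay under the filter, so it was measured only because the lines were higher. rpoC1, for the β′ subunit, had 2639.9, 3425 and 4356, with log2 ratios of 0.38 and 0.72. rpoC2, for the β″ subunit, had 1155, 1681 and 1738, with log2 ratios of 0.54 and 0.59. For all 3 genes the wild-type array was the lowest and the wrky6-1 array the highest. rpoA, for the α subunit, lies elsewhere on the genome, at the end of a ribosomal protein operon, and had 7014, 5804 and 7180, with log2 ratios of -0.27 and 0.03. The 4 rpo genes had a median log2 ratio of 0.46 with 35S:WRKY6 and 0.66 with wrky6-1, where all measured probe sets of the array had medians of -0.02 and -0.01. The plastid-encoded photosynthesis genes were also shifted upward, with medians of 0.24 and 0.31. Under a stricter filter at the 70th percentile, which leaves out rpoB, the rpo medians were 0.38 and 0.59. Counted with accD, the 3 genes of the rpoB operon ranged from 0.04 to 0.86 in 35S:WRKY6 and from 0.40 to 0.93 in wrky6-1. Of the genes named above as read by the nuclear polymerase, clpP, which both can read, is given below, and ycf2 lay under the filter.

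Of the 10 small-subunit genes 9 were measured, and in 35S:WRKY6 they divided by position. The 7 outside the operon that starts with rpl23 were all above wild type in 35S:WRKY6, with log2 ratios from 0.20 to 0.69 and a median of 0.36. In wrky6-1 they ranged from -0.11 to 0.57, with a median of 0.33 and 6 above 0. The lowest there, rps18, lay level with rps3 from inside the operon, also at -0.11. Among all measured probe sets 48.1% lay above 0 in 35S:WRKY6 and 49.5% in wrky6-1. rps4 had signals of 8393, 13401 and 12447, which is 1.60-fold and 1.48-fold higher. rps15, whose neighbour is ndhH, had 340.1, 547 and 497, 1.61-fold and 1.46-fold higher. For both genes the wild-type array was clearly the lowest of the 3. rps7 had 4864, 7361 and 5613, so that only the 35S:WRKY6 array stood apart, at 1.51-fold over wild type. rps2, the start of an operon that continues with genes of ATP synthase, had 4012, 5118 and 5036, with log2 ratios of 0.35 and 0.33. Its neighbour atpI had 204, 467 and 488, with log2 ratios of 1.20 and 1.26, and atpH, next after it, 1.28 and 1.38. Farther along, atpF had 0.95 and 1.06, and atpA, the last, had 0.41 and 0.53, close to rps2.

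rps16 had signals of 466, 564 and 618, and its log2 ratios of 0.28 and 0.41 were between 1 and 2 times the SD of a single probe set. rps18 had 2632, 3031 and 2434, on either side of wild type. rps12, whose messenger is joined from separately transcribed pieces, had 2 probe sets. The brighter one had 1594, 2042 and 1979, with log2 ratios of 0.36 and 0.31, and the dimmer one 163, 306 and 292, with 0.91 and 0.84. The dimmer one was under the filter in wild type and passed it only through the lines, so its direction adds nothing, and the gap between the 2 in size was larger than most ratios given here. The signal of rps14 was 39.4, 55.8 and 60.4, near the floor on every array, and no ratio is drawn from it. The 2 small-subunit genes inside the rpl23 operon were lower than wild type in both lines. rps3 had 7695, 6345 and 7119 and rps19 had 5104, 4130.0 and 4128, so that the log2 ratios were -0.28 and -0.31 for 35S:WRKY6 and -0.11 and -0.31 for wrky6-1.

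The large-subunit genes had mostly lower signals in the lines than in wild type. Their median log2 ratio was -0.30 in 35S:WRKY6, where 7 of 9 lay below 0, and -0.30 in wrky6-1, where all 9 did. Among all measured probe sets 51.9% lay below 0 in 35S:WRKY6 and 50.5% in wrky6-1. rpl14 had signals of 1351, 851 and 1092, so that 35S:WRKY6 was 1.59-fold lower than wild type and wrky6-1 1.24-fold lower. rpl23 had 7102, 5003 and 5329.6, which is 1.42-fold and 1.33-fold lower. rpl36 had 4531, 3349 and 3823, with log2 ratios of -0.44 and -0.25. In these genes wild type was the highest array and 35S:WRKY6 the lowest.

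rpl2 had signals of 12403, 10040 and 10047, nearly equal in the lines and 1.24-fold lower than wild type in 35S:WRKY6. rpl22 had 6723, 5455 and 6322, and rpl16 had 1658, 1418 and 1577, with log2 ratios of -0.09 and -0.07 in wrky6-1, well inside the SD of a single probe set. rpl20, which lies with clpP and rps12 and outside the rpl23 operon, had 337, 236 and 226, with log2 ratios of -0.52 and -0.58. Of its neighbours in that operon, clpP had log2 ratios of 0.05 and 0.25, the first well inside the SD of a probe set. The other, rps12, had 0.36 and 0.31, but its messenger is joined from separately transcribed pieces. Neither neighbour was below wild type in either line, and their difference from rpl20 was not tested. The remaining genes, rpl32 and rpl33, differed between the lines. rpl32 had 5829, 6588 and 4974, with log2 ratios of 0.18 and -0.23. rpl33 had 10626, 12997 and 8304, with log2 ratios of 0.29 and -0.36.

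The operon from rpl23 to rpoA is where most of the lower signals lay. It holds 9 of the 30 genes: rpl23, rpl2, rps19, rpl22, rps3, rpl16, rpl14, rpl36 and rpoA in their order of transcription. All 9 were lower in 35S:WRKY6 than in wild type, with log2 ratios from -0.67 to -0.23 and a median of -0.30. In wrky6-1 they ranged from -0.41 to 0.03, with a median of -0.25 and 8 below 0. Over the 28 measured genes, the median log2 ratio was 0.15 in 35S:WRKY6 and 0.03 in wrky6-1. Of these genes, 11 lay below 0 in 35S:WRKY6 and 13 in wrky6-1, beside 51.9% and 50.5% of all measured probe sets. In wrky6-1 the 3 large-subunit genes outside the operon were also below 0, with a median of -0.36. The 6 inside had a median of -0.27, so lower large-subunit signals were not confined to the operon there. The operon medians ranged over the other scalings of the arrays from -0.46 to -0.20 in 35S:WRKY6 and from -0.35 to -0.17 in wrky6-1. Setting the operon aside removes most of the values below 0, so a higher median of the rest follows in part from that choice. The other 19 measured genes had medians of 0.32 and 0.32, with 17 and 14 above 0, where 48.1% and 49.5% of all measured probe sets were. A similar shift was seen in the plastid-encoded photosynthesis genes, with medians of 0.24 and 0.31 and 31 of 40 above 0 in each line. Most single ratios in the operon were close to the SD of a probe set, and only rpl14 in 35S:WRKY6 passed 1.5-fold. The 9 genes share a transcript, so they are not independent observations of it, and no test of the operon against the other genes was run.

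**Figure D2:**
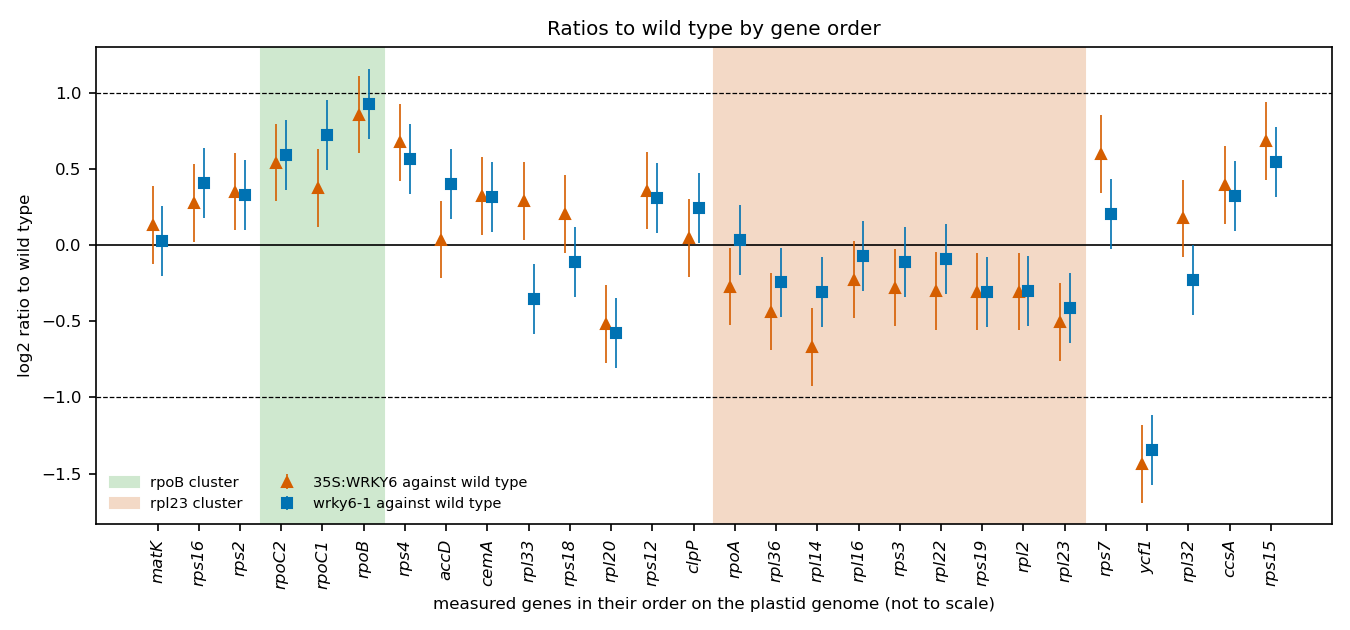
Log2 ratio to wild type (vertical axis) of the 28 measured genes in their order on the plastid genome (horizontal axis, not to scale, a gene present in 2 copies placed at its first copy), for 35S:WRKY6 (triangles) and wrky6-1 (squares), 1 array each. Bars are the SD of a single probe set, 0.25 and 0.23, and dashed lines mark 2-fold. The rpoB operon lies above 0, the rpl23 operon mostly below, and ycf1 alone passes a dashed line.

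Among the 7 genes with other roles, ycf1 stood apart. It encodes a component of the protein import machinery of the inner envelope, and its signal was 2225 on the wild-type array against 822 for 35S:WRKY6 and 877 for wrky6-1. That is 2.71-fold lower in 35S:WRKY6 (log2 ratio -1.44) and 2.54-fold lower in wrky6-1 (log2 ratio -1.34). The lines lay close together and far from wild type, and since both ratios use the same wild-type array, they are not separate observations of its level. The probe set matches ycf1 at 2 places of the plastid genome, the full gene and a shorter copy in the inverted repeat, and cannot tell their transcripts apart. Of its neighbours on the genome, rps15 was higher than wild type in both lines, and ndhF was under the floor on all 3 arrays and gives no ratio.

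The other genes of this group differed less between arrays. accD, for a subunit of the acetyl-CoA carboxylase of fatty acid synthesis, had signals of 2161, 2218 and 2858, with log2 ratios of 0.04 and 0.40. clpP, for a proteolytic subunit of the Clp protease, had 13724, 14187 and 16276, with 0.05 and 0.25. In both genes the wrky6-1 array was the highest. matK, for a maturase that assists intron splicing, had 8838, 9681 and 9007, and its log2 ratios of 0.13 and 0.03 were within the SD of a probe set. cemA, for an envelope protein linked to carbon uptake, had 9334, 11675 and 11633, with 0.32 in both lines. ccsA, for a factor that attaches heme to c-type cytochromes, had 11685, 15362 and 14620, with 0.39 and 0.32. For cemA and ccsA wild type was the lowest array. ycf2, for a component of an import-associated complex, had 55.7, 17.7 and 27.6, under the floor in both lines and too low for a ratio.

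Few genes passed a fold threshold. In 35S:WRKY6, 0 of the 28 measured genes exceeded wild type by 2-fold or more and 1, ycf1, was 2-fold or more below it, beside 3.79% and 5.61% of all 12139 measured probe sets. In wrky6-1 the counts were 0 and 1, again ycf1, beside 5.16% and 7.77% of 12222. Between the lines 0 genes were 2-fold higher and 0 2-fold lower, beside 4.53% and 4.65% of 12000. At 1.5-fold, 4 genes were higher and 2 lower in 35S:WRKY6, where 10.2% and 14.7% of measured probe sets were. In wrky6-1, 3 were higher and 1 lower, where 14.5% and 18.2% were. The 3 were the genes of the rpoB operon. One of them, rpoB, also among the 4 in 35S:WRKY6, was measured only because the lines were higher. These counts, of 28 genes each, are near or under the shares of all probe sets.

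Set against each other, the lines were close for most of these genes. The median log2 ratio of 35S:WRKY6 over wrky6-1 was -0.02 over the 28 measured genes, with a range from -0.37 to 0.65. The 4 rpo genes all lay below 0, with a median of -0.19, and 8 of the 9 genes of the rpl23 operon lay below 0, with a median of -0.17, where 50.9% of all measured probe sets did. rpl33, at 1.57-fold over wrky6-1 in 35S:WRKY6, was the only gene of the 28 past 1.5-fold in this comparison, beside 11.9% of all measured probe sets in that direction. rps18, which follows it on the genome, had a log2 ratio of 0.32, and psaJ, on its other side, had 0.48, at signals of 11463 and 8242. psaJ, a photosystem gene, was named after its values were seen. rpl32 had 0.41 and rps7 0.39. At the other end stood accD at -0.37, rpl14 at -0.36, rpoC1 at -0.35 and rpoA at -0.31.

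**Figure D3:**
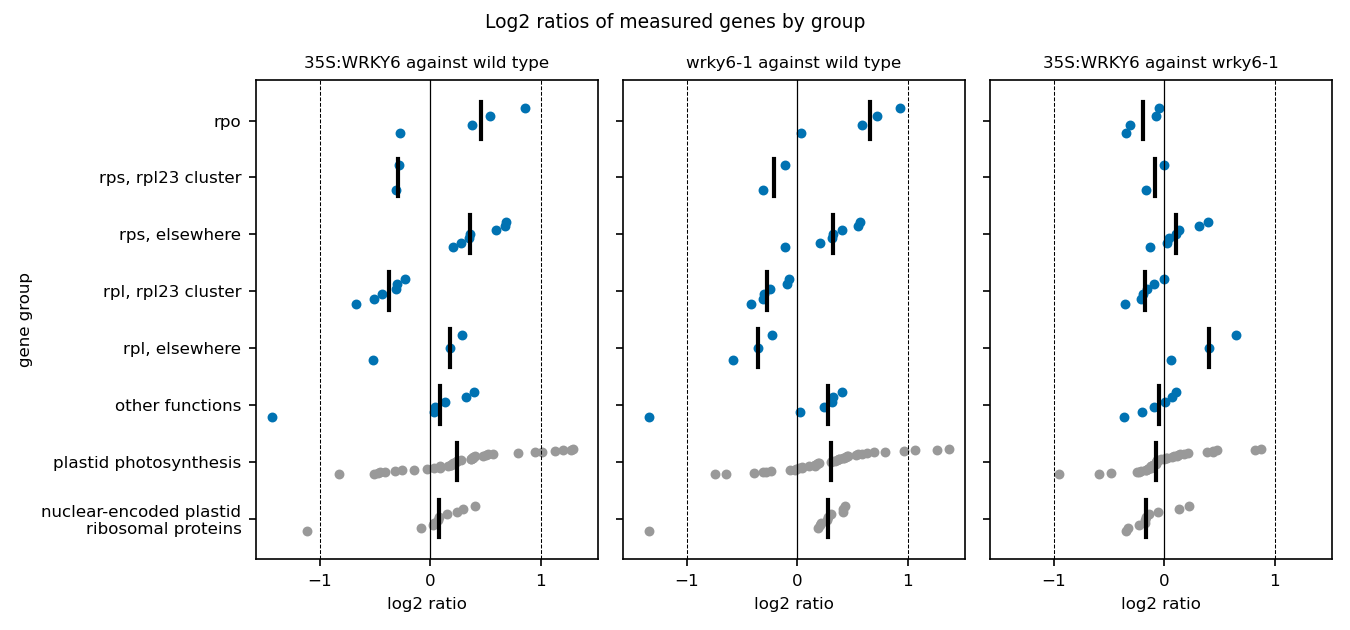
Log2 ratios (horizontal axes) of measured genes by group (rows) in the 3 comparisons (panels), each point 1 gene and each bar the group's median, blue for the genes described here and grey for comparison groups. Dashed lines mark 2-fold. In the left and middle panels the ribosomal protein genes of the rpl23 operon lie left of 0 and small-subunit genes elsewhere lie mostly right of it.

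The plastid-encoded photosynthesis genes gave the nearest comparison. Of 46 with a probe set 40 were measured, with medians of 0.24 for 35S:WRKY6 and 0.31 for wrky6-1 on the log2 scale and 31 above 0 in each, where 48.1% and 49.5% of all measured probe sets were. Of the 40, 5 and 3 exceeded wild type by 2-fold or more, beside 3.79% and 5.16% of all measured probe sets. In each line 0 were 2-fold lower, beside 5.61% and 7.77%. ndhG, for a subunit of the NADH dehydrogenase-like complex, had the largest ratio in 35S:WRKY6, with signals of 368, 904 and 492. The median of the large-subunit ribosomal genes lay on the other side of 0 in both comparisons, and that of the small-subunit genes outside the rpl23 operon, 0.36 and 0.33, lay near these medians, though single genes did not. Of 16 mitochondria-encoded genes with a probe set 4 were measured, with medians of -0.21 and -0.15. nad4, a respiratory complex gene, had 459.9, 381 and 390.4, and cox1, a cytochrome oxidase gene, had 308, 268 and 218.

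Nuclear genes that work with the plastid-encoded ones were covered in part. Of 37 listed nuclear genes for plastid ribosomal proteins, 10 had a named probe set and all 10 were measured. Their median log2 ratio was 0.08 in 35S:WRKY6 and 0.28 in wrky6-1, with 8 and 9 above 0, beside 48.1% and 49.5% of all measured probe sets. AT5G24490 alone passed 2-fold, with signals of 9287, 4288 and 3674, 2.17-fold and 2.53-fold lower. Without it the other 9 ranged from -0.08 to 0.41 and from 0.19 to 0.43. The largest of these were AT4G17560 in 35S:WRKY6, at 0.41, and AT3G13120 in wrky6-1, at 0.43. Of 12 nuclear Clp protease genes 3 were measured. CLPP4 had log2 ratios of -0.12 and 0.36, AT1G09130 had -0.13 and 0.38, and AT1G68660 had 0.38 and 0.27. Of 3 genes for cytochrome c assembly in the plastid 2 were measured, AT1G49380 at 0.48 and 0.65 and CcdA at -0.01 and 0.05. Of 9 genes for partners of ycf1 and ycf2 in import, 1 was measured, the malate dehydrogenase gene MDH, at 0.29 and 0.56. The list of 9 sigma factors and nuclear polymerases had 1 probe set, under the filter, and the lists of 13 polymerase-associated proteins, 4 carboxylase subunits and 5 RNA turnover factors had 0 named probe sets, so the nuclear side of plastid transcription was not analysed here.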

How the data were processed

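The authors deposited 1 table of linear signal intensity values, with a row for each probe set and a column for each array. Per the submitters' processing notes GCOS 1.0 and MAS5 were used, with no role given, and per the labels' protocols 8 µg of RNA was labelled per array. The 2% trimmed means were 500.0, 499.8 and 500.1, so the arrays were used as scaled. Of 22810 probe sets, 64 controls were left out. Values under the pooled 30th percentile were raised to it, and a probe set was measured where the higher array reached the 50th percentile. Names came from the platform's annotation table, and plastid genes and their neighbours were found through the TAIR10.1 gene table. No coordinates are given, because the build behind the probe sets is not given in the sources used here. The 6 genes annotated at 2 places of the plastid genome were kept, since both entries carry 1 symbol. The brightest probe set stood for a gene with more than 1. Ratios were computed with Python 3.11.15, numpy 2.4.6 and pandas 2.3.3 and tested on simulated data. Signals of different probe sets are not comparable with each other.

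The genes and lists were chosen with earlier results of these data known. All genes described are named, other genes only as the 2 measured members of a list farthest from a log2 ratio of 0, or as operon neighbours, unless stated. Alternatives changed the floor, the scaling, the filter, the probe set per gene and the fold threshold. Precision is limited by the number of arrays.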

Additional observations from a re-analysis of the deposited data

Results flagged for a closer look

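The hybridisation spike-ins, control transcripts outside the comparisons of genes, had a median signal ratio of 1.31 for 35S:WRKY6 over wild type, with a range from 1.17 to 1.39 over 9 probe sets, against 1.05 for wrky6-1 over wild type. They were singled out because their level on the 35S:WRKY6 array lay above that on the wild-type array. Their part in the plastid gene ratios was not tested.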

How the results depend on the processing

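Of 399 values computed under alternatives, 371 kept their direction and moved by less than the SD of a single probe set (counts by at most 1.5 times), 16 moved further or to 0 and 12 changed sign. The cause was not tested. The 371 include 36 values each from the floors at the 20th and 40th percentiles and from the filter on the mean of the 3 arrays. None of these changed at all, and averaging probe sets could change only rps12. The 371 thus overstate how far the results were checked. Over all alternatives the rpl23 operon median ran from -0.54 to -0.20 in 35S:WRKY6 and from -0.55 to -0.11 in wrky6-1. The rpoB operon median ran from 0.30 to 0.64 and from 0.41 to 0.80. Under the filter at the 70th percentile, which leaves out rpoB, it was 0.46 and 0.66. The sign changes were all in medians of all the genes or of those with other roles. Over all genes the median became 0.0019 between the lines under median scaling, -0.0816 in wrky6-1 under quantile scaling, and -0.0128 in 35S:WRKY6 and -0.15 in wrky6-1 under lowess scaling. That of the genes with other roles became -0.0490 in 35S:WRKY6 and 0.0361 in wrky6-1 under lowess scaling. Between the lines it became 0 without the filter. Median scaling gave 1 gene 2-fold higher in wrky6-1. At 1.5-fold, 4 genes were higher and 2 lower in 35S:WRKY6, 3 higher in wrky6-1, and 1 higher between the lines.

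Some alternatives were chosen after seeing the data. Without the genes annotated at 2 places, ycf1 among them, 0 genes were 2-fold lower in 35S:WRKY6 and 0 in wrky6-1, and the median of those with other roles between the lines was 0.0052. Centred on the photosynthesis genes, that median was -0.15 in 35S:WRKY6, -0.0275 in wrky6-1 and 0.0273 between the lines, and the median of all genes -0.0860, -0.28 and 0.0467. In wrky6-1 this centring gave 0.35 for rpo, 0.0029 for rps, -0.61 for rpl, -0.55 for the rpl23 operon and 0.41 for the rpoB operon. In 35S:WRKY6 the values in the same order were 0.22, 0.11, -0.54, -0.54 and 0.30. Among probe sets past the 70th percentile of signal, 3.75% were 2-fold higher and 5.49% 2-fold lower in 35S:WRKY6, close to the shares of all measured ones. Low signal limits rpoB, rpl20, rps14 and ycf2. The filter at the 70th percentile keeps 26 genes and leaves out rpoB and rpl20 besides the unmeasured ones. No paired analysis was possible because each genotype had 1 array.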
